A study of Mus musculus with 24 samples.

Results

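In the islets of 24 mice, 10 genes of interleukin 6 signalling were followed: the cytokines Il6 and Lif, the receptor subunits Il6ra, Il6st and Osmr, the transcription factor Stat3, and the feedback inhibitors Socs1, Socs2, Socs3 and Cish. They were chosen by name, as the probes whose gene name in the scanner files is one of these 10, out of 34779 gene names on the array. Earlier results of these data were known when the genes were chosen. The 10 genes have 14 probes, and all 10 are among the 22968 gene names kept after the filter on dim probes. Stat3 has 2 probes, Socs2 has 4, and each other gene has 1.

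Interleukin 6 binds its receptor Il6ra, and the pair joins gp130, the signalling subunit encoded by Il6st, which oncostatin M and leukaemia inhibitory factor also use with their own partner receptors. Janus kinases bound to gp130 then phosphorylate STAT3, which moves to the nucleus and switches on target genes, Socs3 among them. Socs proteins bind back to the receptors or kinases and end the signal. In islets, interleukin 6 receptors are known from alpha and beta cells, while Cish and Socs2 are known as STAT5 targets downstream of prolactin and growth hormone.

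The mice were males that entered at an age of 8 weeks and belonged to 2 inbred strains. BL6 stands for C57BL6/J, and BLKS for C57BLKs/J. A group of each strain ate chow with 18% of its kcal from fat, another a high-fat diet (HFD) with 42%, and the third the same HFD with pioglitazone (HFD+Pio), an agonist of PPAR-gamma, at 140 mg per kg of diet. Each of the 6 groups holds 4 mice, with 1 array per mouse. Feeding lasted 12 weeks by the sample labels but 16 weeks by the series design, and the difference was not settled here. The labels name no transgene or other allele in any group.

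Levels are log2 processed intensities minus the 75th percentile of the same array, so that 0 is the level of that percentile, and levels of different probes are not compared with each other. The 75th percentile lay between 217.6 and 402.4 intensity units, and between 27355 and 32433 of the distinct probes on an array were well above background. All 10 beta cell markers and all 7 alpha cell markers measured were well above background on 24 of 24 arrays. Islet preparations also held other cells: the mean level of 19 acinar markers ran from -3.14 to 7.66 between mice, and that of 19 lymphocyte markers from -3.79 to 2.40. A lymphocyte level above 0 was found in 4 mice, namely BL6 HFD mouse 4, BL6 HFD+Pio mouse 3, BLKS HFD mouse 3 and BLKS HFD+Pio mouse 1. Because these are bulk samples, fewer cells of a type and less RNA per cell cannot be told apart. Immediate early genes, which cells switch on within minutes of stimulation or handling, separated the strains: their mean level was -0.97 to 0.17 in BL6 and 2.71 to 3.28 in BLKS. The labels name no day or batch of islet isolation, so strain and islet handling cannot be told apart.

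Promoter stretches of 3 of the genes are shown because these genes stand for the cytokine and for the 2 kinds of feedback inhibitor described below. RefSeq (GRCm38.p6) held a window of 250 bases before to 50 bases after the annotated start for 9 of the 10 genes, Socs2 being the one without an entry. Capitals mark STAT motifs (TTCNNNGAA) in Socs3 and Cish, and an AP-1 motif (TGANTCA), the core of a cyclic AMP response element (TGACGT) and 9 letters of an NF-kappaB motif (GGGANTTTC) in Il6. Both strands were searched and no marked motifs overlap. The 3 stretches are chr5:30012864-30013113 on the plus strand (Il6), chr11:117969447-117969566 on the minus strand (Socs3) and chr9:107296654-107296683 on the plus strand (Cish).
Il6: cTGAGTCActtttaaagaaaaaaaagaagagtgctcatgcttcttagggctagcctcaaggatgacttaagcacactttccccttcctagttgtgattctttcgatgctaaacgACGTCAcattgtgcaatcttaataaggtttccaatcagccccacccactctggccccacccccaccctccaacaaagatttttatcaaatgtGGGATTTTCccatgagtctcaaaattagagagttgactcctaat
Socs3: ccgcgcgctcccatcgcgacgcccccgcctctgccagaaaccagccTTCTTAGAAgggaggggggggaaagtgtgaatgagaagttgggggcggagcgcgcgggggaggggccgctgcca
Cish: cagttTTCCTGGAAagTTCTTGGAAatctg

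Counted from the annotated start as +1, the Cish window holds 2 STAT motifs in tandem, beginning at 1 and 12, and the Socs3 window holds 1, beginning at -154. No other member with a window holds that motif there, and 8.3% of all 32851 promoter windows of this length do. The Il6 motifs begin at -249 (AP-1), -136 (the response element core) and -44 (NF-kappaB). Of all windows, 7.81% hold the AP-1 motif, 7.51% the response element core and 1.11% the NF-kappaB motif. Osmr and Lif each hold an AP-1 motif, and Cish holds a response element core. These matches describe letters in a window of the reference build. The mice of either strain were not sequenced, and binding was not measured.

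Between the strains all 10 genes differed, most of them upward in BLKS. Averaged over the 3 diets, 9 of the 10 genes were higher in BLKS and Il6ra alone was lower, at an adjusted p under 0.05 in a limma fit over all genes. In the same comparison 30.1% of the 22968 genes were called higher and 34.5% lower. The median log2 difference of the 10 genes was 1.32, against -0.05 over all genes tested. For 6 of the 10 genes (Il6, Il6ra, Il6st, Osmr, Stat3 and Socs3) the 12 BLKS arrays did not overlap the 12 BL6 arrays, and 19.4% of all genes had that separation. Since the 10 genes were chosen with earlier results of these data known, their contrast with all genes is no independent evidence. The plot of levels by mouse shows the 10 genes.

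**Figure D1:**
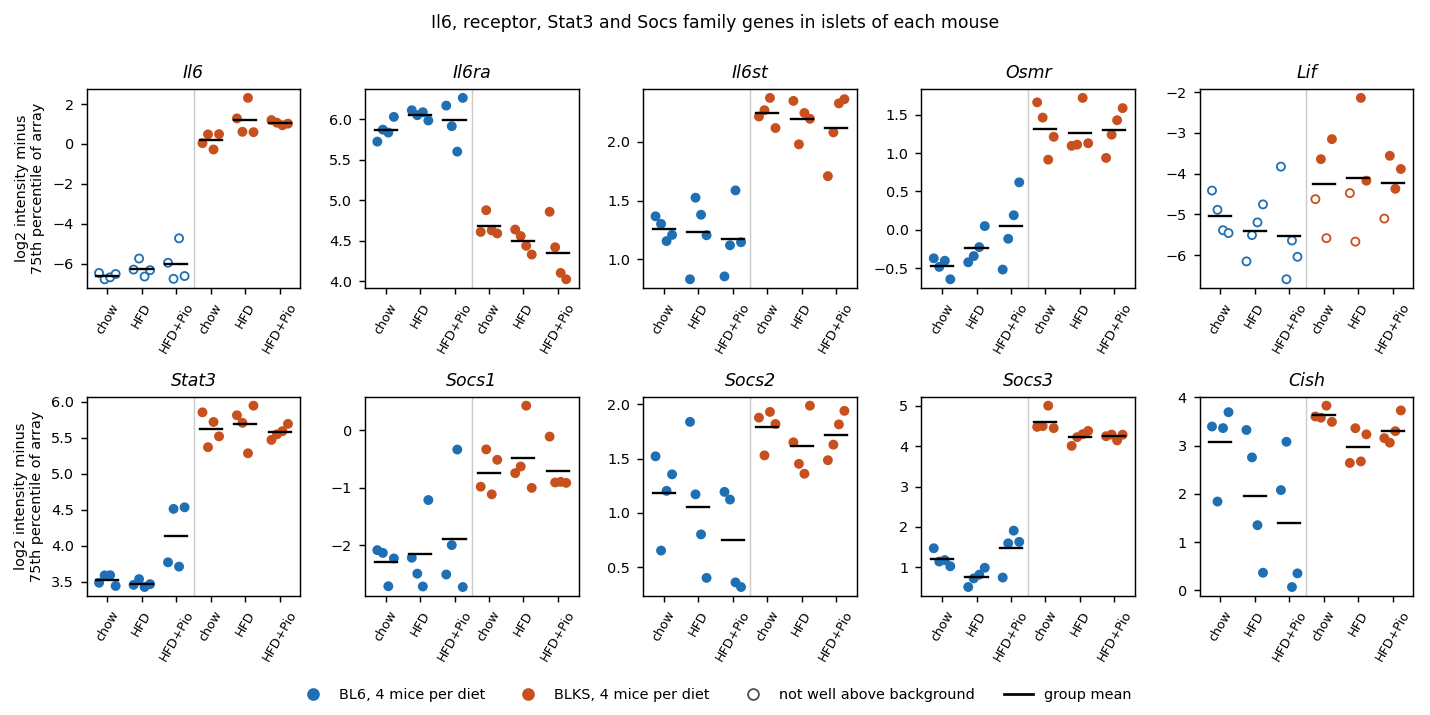
Level of each of the 10 genes (log2 intensity minus the array's 75th percentile, each panel on its own scale) in every mouse, with BL6 in blue, BLKS in orange, open points not well above background and bars at the group means. The 12 BL6 points of Il6 are all open and lie below the 12 BLKS points, and Il6ra is the 1 gene with BLKS below BL6. Cish and Socs2 range more widely in BL6 than in BLKS, as do Il6st, Osmr, Stat3, Socs1 and Socs3.

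Il6, the founding cytokine of the family (probe at chr5:30346367-30346426, mm9), was well above background on 12 of 12 BLKS arrays and on 0 of 12 BL6 arrays. In BLKS, its levels were 0.04, 0.48, -0.28 and 0.49 on chow, 1.28, 0.61, 2.31 and 0.59 on HFD, and 1.20, 1.07, 0.94 and 1.02 on HFD+Pio. In BL6, the measured values were -6.47, -6.79, -6.69 and -6.52 on chow, -6.30, -5.75, -6.65 and -6.33 on HFD, and -5.96, -6.77, -4.73 and -6.63 on HFD+Pio. Every BL6 value was below every BLKS value, and BLKS HFD mouse 3 had the highest level of all. Because no BL6 array had Il6 well above background, its BL6 level was replaced by a floor. The floor is the lowest well-detected signal of each BL6 array, or the probe's own where that was higher. Against that floor, Il6 was 38.5-fold higher in BLKS over the 3 diets, and the fold holds for that floor alone. By diet it was 25.7-fold on chow, 44.4-fold on HFD and 49.97-fold on HFD+Pio. The measured log2 difference over the diets was 7.11 (adjusted p = 1.53e-16 in the limma fit). Leaving aside the immediate early covariate given below, it ran from 3.31 to 7.20 under other settings with all mice or several left out.

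Lif encodes leukaemia inhibitory factor, a gp130 cytokine that signals through the Lif receptor (probe at chr11:4172032-4172091, mm9). Its signal was near background: it was well above background on 0 of 12 BL6 and 7 of 12 BLKS arrays. BLKS values were -4.63, -3.64, -5.58 and -3.15 on chow, -4.48, -5.67, -2.14 and -4.17 on HFD, and -5.10, -3.56, -4.37 and -3.89 on HFD+Pio. BL6 values ran from -6.59 to -3.83, with a median of -5.42, and overlapped those of BLKS. The measured signal was higher in BLKS over the 3 diets by 1.12 ± 0.38 on the log2 scale (SE; adjusted p = 0.0139). No fold is given, since all BL6 arrays and part of the BLKS arrays were not above background. The difference passed the threshold on none of the single diets (adjusted p = 0.367 on chow, 0.112 on HFD and 0.116 on HFD+Pio).

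Il6ra, the ligand-binding subunit of the interleukin 6 receptor, went the other way (probe at chr3:89674054-89674113, mm9). BL6 levels were 5.72, 5.87, 5.84 and 6.03 on chow, 6.11, 6.05, 6.09 and 5.99 on HFD, and 6.17, 5.91, 5.60 and 6.26 on HFD+Pio. BLKS levels were 4.61, 4.88, 4.63 and 4.59 on chow, 4.64, 4.56, 4.44 and 4.33 on HFD, and 4.86, 4.42, 4.10 and 4.03 on HFD+Pio. All BLKS mice were below all BL6 mice. The log2 difference over the diets was -1.46 ± 0.09 (SE, 12 mice per strain; adjusted p = 8.3e-12), a level 2.76-fold lower in BLKS.

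Il6st encodes gp130, the shared signal transducer (probe at chr13:113296586-113296645, mm9). Its level averaged 1.22 ± 0.23 in BL6 and 2.19 ± 0.19 in BLKS (SD, n = 12 each). BL6 mice ran from 0.83 to 1.59 and BLKS mice from 1.71 to 2.38, without overlap. The difference of 0.96 ± 0.09 (SE; adjusted p = 1.22e-08) was nearly the same size on chow (0.99), HFD (0.96) and HFD+Pio (0.94), each with an SE of 0.16.

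Osmr, the receptor subunit that pairs with gp130 to bind oncostatin M (probe at chr15:6763686-6763745, mm9), was also higher in BLKS. BL6 levels were -0.37, -0.48, -0.40 and -0.65 on chow, -0.42, -0.34, -0.23 and 0.05 on HFD, and -0.52, -0.12, 0.19 and 0.62 on HFD+Pio. BLKS levels were 1.66, 1.46, 0.91 and 1.21 on chow, 1.10, 1.11, 1.72 and 1.13 on HFD, and 0.94, 1.24, 1.43 and 1.59 on HFD+Pio. The highest BL6 mouse, on HFD+Pio, stayed below the lowest BLKS mouse, on chow. The strain difference was 1.52 ± 0.12 on the log2 scale (SE; adjusted p = 7.56e-10), or 2.86-fold.

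Stat3, the transcription factor that gp130 activates (probe at chr11:100749598-100749657, mm9), had levels of 3.49, 3.59, 3.59 and 3.44 on chow, 3.46, 3.54, 3.43 and 3.47 on HFD, and 3.77, 4.51, 3.71 and 4.54 on HFD+Pio in BL6. In BLKS they were 5.86, 5.37, 5.72 and 5.52 on chow, 5.81, 5.71, 5.29 and 5.95 on HFD, and 5.47, 5.55, 5.59 and 5.70 on HFD+Pio. The 8 BL6 mice without pioglitazone lay within a narrow band, and the 4 with it lay above that band and below every BLKS mouse. The strain difference over the diets was 1.92 ± 0.10 (SE; adjusted p = 4.81e-13), or 3.78-fold. A second, dimmer Stat3 probe gave 1.90 ± 0.14 (adjusted p = 1.36e-10 over all probes).

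Socs3, the inhibitor that binds gp130 and the attached kinases and is itself a STAT3 target (probe at chr11:117827480-117827539, mm9), had the largest fold among those of the 10 genes that were above background in both strains. BL6 levels were 1.47, 1.14, 1.18 and 1.03 on chow, 0.51, 0.72, 0.82 and 0.99 on HFD, and 0.75, 1.59, 1.91 and 1.63 on HFD+Pio. BLKS levels were 4.48, 4.50, 5.00 and 4.45 on chow, 4.01, 4.22, 4.30 and 4.38 on HFD, and 4.25, 4.29, 4.14 and 4.29 on HFD+Pio. No BL6 mouse came near the lowest BLKS mouse. The difference was 3.21 ± 0.11 (SE; adjusted p = 6.37e-16), or 9.27-fold, and it was 3.40 on chow, 3.47 on HFD and 2.77 on HFD+Pio.

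Socs1, which blocks Janus kinases and restrains interferon and interleukin signals (probe at chr16:10783951-10784010, mm9), was higher in BLKS by 1.47 ± 0.25 (SE; adjusted p = 2.41e-05). BL6 levels were -2.09, -2.13, -2.71 and -2.23 on chow, -2.22, -2.50, -2.72 and -1.21 on HFD, and -2.51, -1.999, -0.33 and -2.73 on HFD+Pio. BLKS levels were -0.98, -0.33, -1.11 and -0.51 on chow, -0.75, -0.63, 0.43 and -1.002 on HFD, and -0.11, -0.91, -0.90 and -0.91 on HFD+Pio. BL6 HFD+Pio mouse 3 overlapped the BLKS mice. The high mice of the HFD and HFD+Pio groups are the 4 with the lymphocyte marker level above 0, and across mice Socs1 followed that level with r = 0.82 in 12 BL6 and r = 0.93 in 12 BLKS mice, as a description over arrays that share their groups. Without those 4 mice, a comparison added after the data were seen, the strain difference was 1.58 (adjusted p = 8.33e-09). On HFD+Pio alone the Socs1 difference of 1.19 (adjusted p = 0.0279) lost its call when only the groups compared entered the fit (adjusted p = 0.101), and without BL6 HFD+Pio mouse 1, 2 or 4 or BLKS HFD+Pio mouse 1, with adjusted p between 0.0552 and 0.104.

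Socs2 and Cish, feedback inhibitors of cytokine and growth hormone receptors, had a wider range among BL6 mice than the difference between their strain means. The same held for Socs1 and Lif. Cish (probe at chr9:107204196-107204255, mm9) had BL6 levels of 3.39, 1.84, 3.36 and 3.69 on chow, 3.32, 2.75, 1.35 and 0.36 on HFD, and 2.08, 3.08, 0.07 and 0.35 on HFD+Pio. Its BLKS levels were 3.60, 3.58, 3.83 and 3.49 on chow, 2.64, 3.36, 2.67 and 3.23 on HFD, and 3.15, 3.06, 3.30 and 3.73 on HFD+Pio. The low BL6 mice span every diet, while every BLKS mouse was at 2.64 or above. The BL6 spread, an SD of 1.33 over 12 mice, was wider than the 0.38 of BLKS. Over the diets Cish was higher in BLKS by 1.17 ± 0.35 (SE; adjusted p = 0.00598).

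Socs2 (brightest probe at chr10:94875066-94875125, mm9) had BL6 levels of 1.52, 0.65, 1.20 and 1.36 on chow, 1.84, 1.17, 0.80 and 0.40 on HFD, and 1.19, 1.12, 0.36 and 0.32 on HFD+Pio. Its BLKS levels were 1.88, 1.53, 1.93 and 1.82 on chow, 1.65, 1.45, 1.36 and 1.99 on HFD, and 1.49, 1.63, 1.82 and 1.94 on HFD+Pio. The BL6 mice that were low for Cish were low for Socs2 as well. Socs2 was higher in BLKS by 0.71 ± 0.15 (SE, adjusted p = 0.000338), and its 3 other probes gave 0.76, 0.81 and 0.69. The probe with 0.69 was well above background on 21 of 24 arrays. Cish and Socs2 levels correlated with r = 0.89 over 24 arrays, 0.91 over 12 BL6 arrays and 0.57 over 12 BLKS arrays, and r was 0.87 for deviations from the group means. The arrays share tissue, dye and scanner, so these r values are descriptions.

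**Figure D2:**
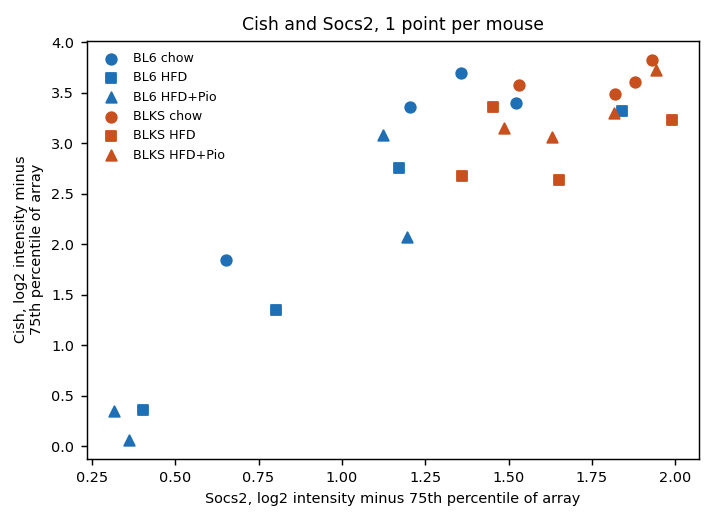
Level of Cish against level of Socs2 (both log2 intensity minus the array's 75th percentile), 1 point per mouse, with BL6 in blue, BLKS in orange and the diet as the shape. The BL6 mice run from low to high on both axes, with r = 0.91, and the 12 BLKS mice sit at the upper right.

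By diet, the strain comparison called 6 genes higher and 1 lower on chow, 6 and 1 on HFD, and 8 and 1 on HFD+Pio. On none of the diets did mice of the 2 strains share a slide, so strain and slide cannot be told apart within a diet. Over all genes, 20.6% were called higher and 20.9% lower on chow, 23.2% and 26.7% on HFD, and 23% and 22.8% on HFD+Pio. Il6, Il6st, Osmr, Stat3, Socs1 and Socs3 were higher and Il6ra lower on each of the 3 diets. Lif was called on none of them, and Cish and the brightest Socs2 probe on HFD+Pio alone. Of the 3 other Socs2 probes, 2 passed on chow (adjusted p = 0.0076 and 0.0375 over all probes) and 2 on HFD (0.0158 and 0.0462). For Cish the difference was 0.55 on chow, 1.03 on HFD and 1.92 on HFD+Pio, each with an SE of 0.60. The HFD+Pio call of Cish (adjusted p = 0.013) rests on single mice: adjusted p was 0.0541 without BL6 HFD+Pio mouse 3 and 0.0515 without mouse 4. Whether a strain difference differs between chow and HFD, or between HFD and HFD+Pio, was tested by the interactions given below. A change of the strain difference from chow to HFD+Pio was not tested.

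**Figure D3:**
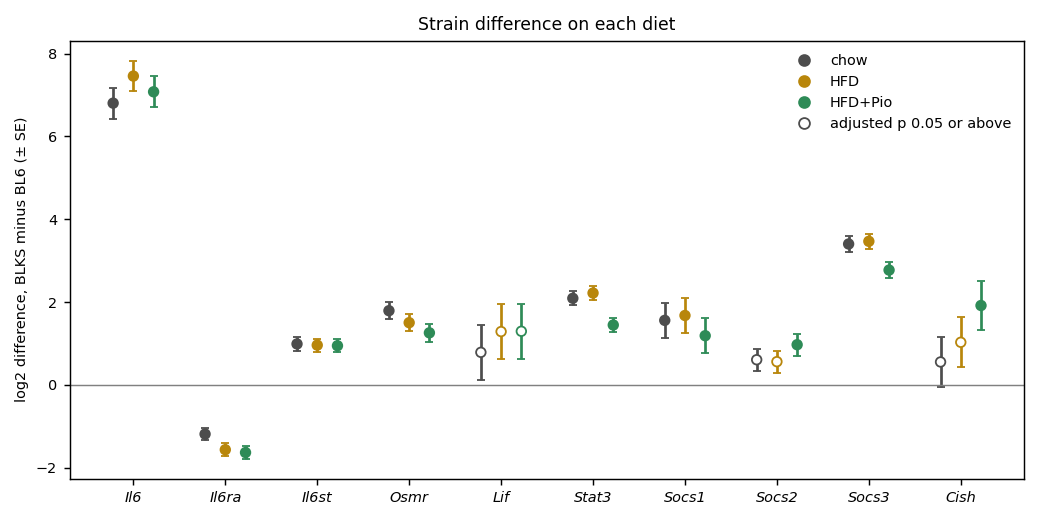
Log2 difference BLKS minus BL6 with its SE for each gene on chow, HFD and HFD+Pio, with open points at an adjusted p of 0.05 or above. Il6 lies between 6.80 and 7.46 (measured values, background signal in BL6), Socs3 between 2.77 and 3.47, and Il6ra below 0 on every diet.

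Mice of both strains lay together on 2 slides, which allowed BLKS chow to be set against BL6 HFD+Pio with the slide as a block. In that comparison 9 of the 10 genes passed the threshold, in the direction given above, and Lif did not (1.27 ± 0.63, adjusted p = 0.112). The share of all genes called there was not recorded, so the count is not a result particular to these genes. In the single-diet strain comparisons, 20.6% to 23.2% of all genes were called higher and 20.9% to 26.7% lower. The measured difference was 6.21 for Il6, whose BL6 side was background signal, -1.31 for Il6ra, 1.48 for Stat3 and 3.14 for Socs3. Osmr differed by 1.60 on the slide with 3 mice of each strain and by 0.30 on the slide with 1 mouse of each. These groups differ in diet as well as strain. The other slides held 1 strain each.

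Most of the strain calls were lost when the immediate early genes entered the fit. With the mean level of that list as a covariate, Stat3 alone of the 10 genes passed the threshold in each strain comparison. Over the diets Stat3 was 3.03 (adjusted p = 0.0162), and all 10 genes passed there without the covariate. Of all 22968 genes, 1049 were called over the diets with the covariate, against 14855 without it. Il6 lost its call as well: its measured difference was 2.385 (adjusted p = 0.213) against 7.11 without the covariate. In that fit Il6st was -0.47 (adjusted p = 0.664) and Socs1 -3.39 (adjusted p = 0.158), while Socs3 was 1.61 (adjusted p = 0.165) and Il6ra -0.25 (adjusted p = 0.826). Another 4 genes lost the call while the difference kept its sign, larger for Cish and Socs2 and smaller for Osmr: Cish was 2.47 (adjusted p = 0.579) against 1.17 without the covariate, Socs2 0.82 (0.689) against 0.71, Lif 1.13 (0.84) against 1.12, and Osmr 1.21 (0.426) against 1.52. Since the list's level does not overlap between strains, the 2 cannot be told apart in these arrays.

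The high-fat diet changed none of the 10 genes past the threshold in either strain. In BL6, 0 of 10 were called for HFD minus chow, with 0.0435% of all genes called, and 1 gene (Socs3) had an unadjusted p under 0.05. Socs3 was lower on HFD by 0.44 ± 0.18 (SE, 4 mice per group; adjusted p = 0.798), and its 4 HFD mice lay below its 4 chow mice. That was the 1 gene of the 10 without overlap, in a comparison where 4.86% of all genes had none. Cish differed by -1.12 ± 0.60 (adjusted p = 0.956), with overlap.

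In BLKS, 0 of 10 genes were called for HFD minus chow, with 0.0784% of all genes called, and again 1 gene (Il6) had an unadjusted p under 0.05. Il6 was higher on HFD by 1.01 ± 0.37 (SE; adjusted p = 0.367), and its 4 HFD mice lay above its 4 chow mice. Without BLKS HFD mouse 3, one of the mice with a lymphocyte level above 0, the Il6 difference was 0.64 (adjusted p = 0.646). Socs3 differed by -0.38 ± 0.18 (adjusted p = 0.551) and Cish by -0.65 ± 0.60 (adjusted p = 0.828), and the HFD mice of both lay below the chow mice. These 3 genes of 10 had no overlap, against 5.8% of all genes. The BLKS HFD arrays lay on 1 slide and the chow arrays on 2 others, 1 of them scanned on another day, so diet and slide cannot be told apart here. The difference of the HFD response between strains was called for 0 of 10 genes, with none at an unadjusted p under 0.05, and for 0% of all genes. Leaving out Il6 and Lif, which were not above background in BL6, the values ran from -0.38 ± 0.22 for Il6ra to 0.48 ± 0.85 for Cish.

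Pioglitazone on HFD likewise gave no call. In BL6, 0 of 10 genes passed for HFD+Pio minus HFD, with 0.192% of all genes called, and 2 genes had an unadjusted p under 0.05. Stat3 was higher by 0.66 ± 0.17 (SE; adjusted p = 0.14), and its 4 HFD+Pio mice lay above its 4 HFD mice. It was the 1 gene of the 10 without overlap, against 3.28% of all genes. The BL6 HFD arrays lay on 1 slide and the HFD+Pio arrays on 2 others, 1 of them scanned on another day, so treatment and slide cannot be told apart here either. The dimmer Stat3 probe differed by 0.60 ± 0.24 (adjusted p = 0.397). Socs3 was higher by 0.71 ± 0.18 (adjusted p = 0.15), and 3 of its 4 HFD+Pio mice lay above the HFD mice. Without BL6 HFD+Pio mouse 1, the Socs3 difference was 0.95 and passed (adjusted p = 0.00366).

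In BLKS, 0 of 10 genes passed for HFD+Pio minus HFD, with 0.00435% of all genes called and none of the 10 at an unadjusted p under 0.05. No gene of the 10 separated the groups, against 2.86% of all genes. The difference of the pioglitazone response between strains was called for 0 of 10 genes and for 0.00871% of all genes. Stat3 (-0.77 ± 0.24, adjusted p = 0.328) and Socs3 (-0.69 ± 0.26, adjusted p = 0.511) had an unadjusted p under 0.05 there. With 4 mice per group, SEs of the diet differences ran from 0.15 for Il6ra to 0.66 for Lif.

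**Figure D4:**
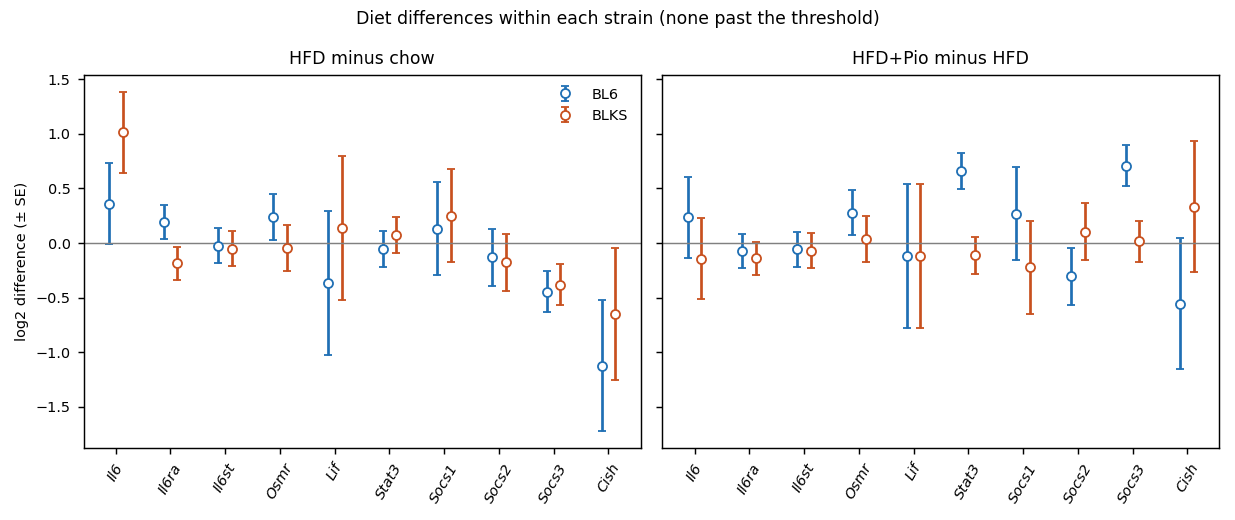
Log2 difference with its SE for HFD minus chow (left) and HFD+Pio minus HFD (right), BL6 in blue and BLKS in orange, none past the threshold. Il6 in BLKS on HFD (1.01) and Stat3 and Socs3 in BL6 with pioglitazone (0.66 and 0.71) lie farthest from 0 relative to their SEs.

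The counts of the other genes of the pathway stand beside 30.1% higher and 34.5% lower over all genes. Of 12 further gp130 ligands and receptors, 5 were higher and 3 lower in BLKS over the diets, with a median of 0.03. Il11, a gp130 cytokine, was higher by 1.18 (adjusted p = 9.05e-06), as were Cntf and the receptor Cntfr, with Osm and Clcf1, 2 genes named after their values were seen, completing the 5. The receptor Lifr was lower by 0.60 (adjusted p = 7.38e-07), and so was Ebi3, an interleukin 27 subunit.

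Of 10 Janus kinases and STATs, 5 were higher and 2 lower, with a median of 0.31. Jak2, which binds gp130, was higher by 0.85 ± 0.04 (SE; adjusted p = 8.29e-14), and Jak3 by 1.97 ± 0.16 (adjusted p = 8.69e-10). Jak1 and Stat2 were also higher, as was Stat6, named after its values were seen, while the kinase Tyk2 was lower by 0.45. Of 12 other inhibitors of the pathway, 6 were higher and 3 lower, with a median of 0.22. The tyrosine phosphatases Ptpn2 and Ptpn1 were higher by 1.59 (adjusted p = 5.5e-15) and 1.04 (adjusted p = 4.96e-13). The lower ones were Socs5 and, named after their values were seen, Ptpn6 and Pias4.

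Genes known as STAT3 targets were higher as a group: of 19 measured, 14 were higher in BLKS and 0 lower, with a median of 2.28. Cebpb, a transcription factor of the acute-phase response, was higher by 2.94 ± 0.08 (SE; adjusted p = 2.8e-17), Fgg, a fibrinogen chain, by 4.51 (adjusted p = 5.92e-15), and Pim3, a kinase, by 2.34 (adjusted p = 3.53e-12). Junb, Bcl3 and Myc were higher by 4.16, 2.18 and 2.98, and Junb and Myc are also in the immediate early list. That list had 19 of 20 genes higher and 0 lower, with a median of 3.33, led by Fosb (6.02), Ier3 (3.58) and Dusp1 (3.42). All 11 inflammatory genes measured were higher, with a median of 2.66, among them the chemokine Cxcl2 (5.65). These lists were drawn up with earlier results of these arrays known, so their direction is no independent evidence.

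The prolactin and growth hormone list, of which Socs2 and Cish are known targets, did not share that direction. Of its 9 genes measured, 1 was higher and 4 lower, with a median of -0.15. Tph2, a serotonin-synthesis enzyme, was higher by 1.88 (adjusted p = 1.43e-07), and the prolactin receptor Prlr was lower by 0.57 (adjusted p = 2.57e-06), as were Igf1, Ccnd2 and Ehhadh. In the 4 diet comparisons within a strain, 1 of the 89 distinct genes in these 7 lists passed, namely Egr1, an immediate early gene, lower on HFD in BL6 by 1.76 (adjusted p = 0.0275).

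**Figure D5:**
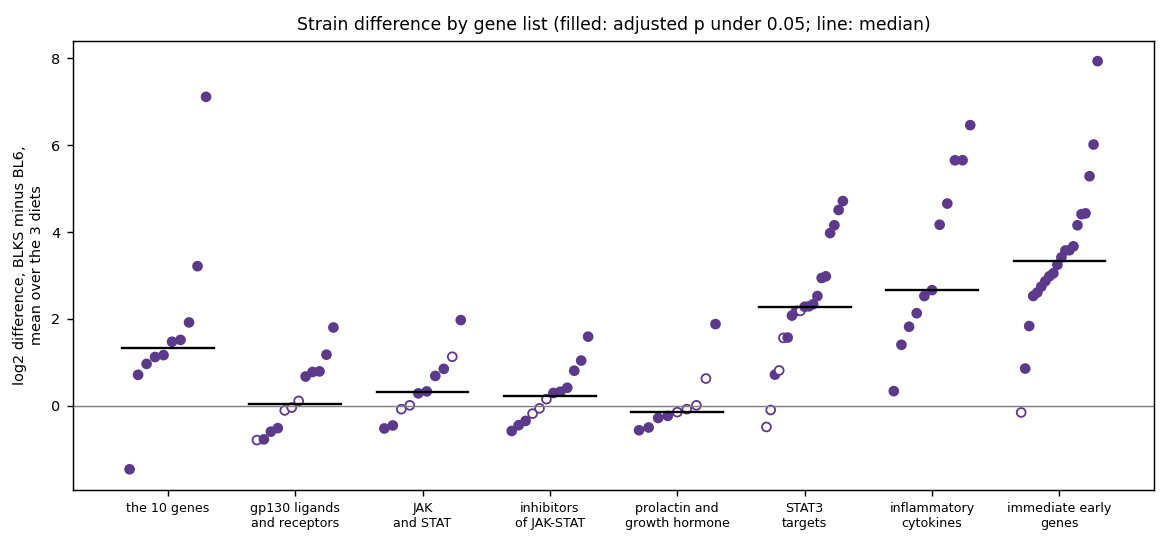
Log2 difference BLKS minus BL6, mean over the 3 diets, for the 10 genes and 7 lists, each point a gene in order of size within its list, filled at an adjusted p under 0.05, with a line at the list's median. Medians run from -0.15 for prolactin and growth hormone genes to 3.33 for immediate early genes.

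Marker lists of cell types held genes called between strains, and their part in the gene differences was not tested except for the covariates named. Of 15 macrophage markers, 12 were lower in BLKS and 1, Cd14, higher by 3.41, and the mean level ran from 0.61 to 2.42 in BL6 and from 0.33 to 1.25 in BLKS. Of 9 duct markers, 6 were higher, Krt19 among them by 4.03, and 1 was lower. Of 10 beta cell markers 5 were lower, Nkx6-1 by 0.48, and of 7 alpha cell markers 5 were lower and 1 higher. These counts stand beside 30.1% higher and 34.5% lower over all genes. Of 19 lymphocyte markers 1, Cd3e, was called, lower by 0.58.

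Likeness over the 24 arrays was measured by Pearson's r against 14050 gene names, as a description in which the 2 strains make 2 clusters. Il6 was nearest to Ier3 (0.99), Rnf19b and Zfp706, Socs3 to Tubb6 (0.99), Emp1 and Csrnp1, and Stat3 to Rnf31 (0.98), Specc1 and Cic. Il6ra was nearest to Pigc (0.97), Napepld and Mboat2, Il6st to Kctd5 (0.97), Slc41a1 and Prdm4, and Osmr to Sphk1 (0.95), Map3k6 and Il4ra. Socs1 was nearest to Rgs1 (0.96), Pmaip1 and Zfp36l1, and Lif to Shank2 (0.79), Fgf2 and Mrgprg. Cish had Socs2 (0.89), Tmem125 and Pcbp3 nearest, and Socs2 had Klf9 (0.91), Cish and Celf6.

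Correlations among the 10 genes over 24 arrays span the strain difference, and several differed in sign within a strain. Il6 and Socs3 had r = 0.96 over 24 arrays and -0.67 within the 12 BLKS mice. Il6 and Stat3 had 0.93 and -0.51, and Il6 and Socs1 had r = 0.71 within BLKS. The values within BLKS span the 3 diets and their slides. For deviations from the group means, r was 0.02 for Il6 and Socs3, -0.79 for Il6 and Stat3, and 0.71 for Il6 and Socs1. Those deviations include the BL6 arrays, where Il6 was background signal. Il6 was not above background on 12 of 12 BL6 arrays, so no r within BL6 is given for it.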

How the data were processed

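Islet RNA was labelled with Cy3 and hybridised to single-colour Agilent arrays, per the labels' protocols. Per the file headers, the deposited processed intensity of each spot came from Agilent Feature Extraction 10.7.3.1, background-subtracted and not normalized between arrays, with probes placed on mm9. The values the authors deposited in a separate table are a linear ratio of processed intensity to the array's median, and served as an alternative.

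Control spots and outlier flags were left out. The log2 intensity was averaged over a probe's spots and the array's 75th percentile over distinct probes subtracted. Probes well above background on at least 4 of 24 arrays were kept (32750), and the brightest stood for its gene. limma 3.58.1 (lmFit, eBayes; R 4.3.3, data.table version 1.17.8) fitted 6 group means over 22968 genes, with 10 contrasts and Benjamini-Hochberg adjusted p-values, threshold 0.05. P-values for single genes come from that fit, except where a covariate, a block, a subset of mice or another probe is named. The fit was tested on simulated data.

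Genes named from lists were the called ones of smallest p, at most 6 from a pathway list and 3 from another, and for each of the 10 genes the 3 names of highest r. Some genes that this rule takes are not reported here. The members and lists were chosen with earlier results of these data known. The mouse numbers do not pair mice: deviations from group means correlated with mean r = 0.01 between arrays of the same number. Alternatives were other background corrections, normalizations, filters, probe rules, covariates, blocks, group subsets and each mouse left out. The number of arrays limits the precision.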

Additional observations from a re-analysis of the deposited data

Results flagged for a closer look

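Of the 60 sets of 4 arrays, 1 for each gene and group, 4 had 1 array far from the other 3, by a gap beyond Dixon's critical value for sets of that size. Chance flags about 1 set in 20. Il6ra in BLKS chow mouse 2 was 4.88, with the others between 4.59 and 4.63. Osmr in BLKS HFD mouse 3 was 1.72, with the others between 1.10 and 1.13. Socs1 in BLKS HFD+Pio mouse 1 was -0.11, with the others between -0.91 and -0.90. Socs3 in BLKS chow mouse 3 was 5.00, with the others between 4.45 and 4.50. The Osmr and Socs1 mice are 2 of the 4 with a lymphocyte marker level above 0 (1.17 and 0.08).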

How the results depend on the processing

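The number of the 10 genes called stayed within 1.5 times under every alternative run but 2. With the immediate early level as a covariate it was 1 in each strain comparison, and there Il6st turned to -0.41, -0.52, -0.48 and -0.47 and Socs1 to -3.19, -3.32, -3.65 and -3.39 on chow, HFD, HFD+Pio and over the diets. For HFD+Pio minus HFD in BL6, leaving out single mice gave 0 to 1. The cause was not tested. Over all settings of single genes, 802 of 838 values of called differences kept sign and call, 29 lost the call under that covariate and 7 elsewhere (Socs1 and Cish on HFD+Pio, given above). Of 1572 values of uncalled differences, 10 passed: Socs2 on chow (4 settings) and HFD (3), Lif on HFD and HFD+Pio when a mouse was left out, and Socs3 as given. Il6 and Lif drop out when probes must be well above background on all 24 arrays.

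Counts over all genes varied more: HFD minus chow gave 0 to 18 in BL6 (10 in the fit used) and 0 to 67 in BLKS (18), HFD+Pio minus HFD 0 to 68 in BL6 (44) and 1 to 52 in BLKS (1), and the 2 interactions 0 to 11 (0) and 0 to 22 (2). The covariate reduced the strain counts from 9544, 11465, 10513 and 14855 to 833, 896, 1364 and 1049. It moved the median of all genes from -0.05 to 0.35 over the diets. The mouse number as a replicate block changed no member count (10 over the diets); it moved the all-gene count of HFD minus chow in BLKS from 18 to 8 and of HFD+Pio minus HFD in BLKS from 1 to 23, and 10 of 24 arrays correlated best with their own number. Slide as a fixed block was fitted for the strain comparison on shared slides. It was also fitted for HFD minus chow in BL6 and for HFD+Pio minus HFD in BLKS, whose groups shared a slide. Signal near background limits Il6 in BL6 and Lif in both strains.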
